A study of Homo sapiens with 6 samples.

Results

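The pyruvate dehydrogenase complex sits in the mitochondrial matrix and converts pyruvate to acetyl-CoA, the step that links glycolysis to the tricarboxylic acid (TCA) cycle. Its E1 enzyme is built from an alpha subunit (PDHA1) and a beta subunit (PDHB), its E2 core is DLAT, and PDHX anchors the E3 enzyme (DLD) to that core. The pyruvate dehydrogenase kinases PDK1, PDK2, PDK3 and PDK4 phosphorylate the E1 alpha subunit and switch the complex off, and the phosphatases PDP1 and PDP2 remove the phosphate and switch it on. The family is well known in hypoxic tumor cells, where PDK1 is a classic target of hypoxia-inducible factor 1 (HIF-1) and a raised kinase level diverts pyruvate from the mitochondria toward lactate.

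These 4 kinases, 2 phosphatases and 4 structural genes of the complex, 10 of the 27754 genes in the count tables, were selected by gene symbol. They were measured by RNA sequencing in T47D, an established line of human breast cancer cells of luminal type, grown attached to the dish in RPMI medium with serum. The control group was 3 libraries from cells kept in 20% O2 (normoxia), and the treated group was 3 libraries from cells kept for 48 h in a chamber which the labels set at 0.5% O2 (hypoxia), whereas the study's text names another O2 level. No allele, transgene or drug separates the groups, and the p-values measure the spread between these libraries. The labels do not say whether the replicates of a condition were separate cultures, and the study describes the data of the figure that holds them as independent experiments.

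Total counts were between 32989104 and 40943424 in 5 libraries and 89883409 in hypoxia replicate 3. Divided by these totals, 3 counts correspond to between 0.0334 and 0.0909 counts-per-million (CPM). The CPM values below are further scaled between libraries, so this floor is approximate for them. Replicate 3 of each condition stood apart from replicates 1 and 2. For example, counts of the mesenchymal gene VIM were 7, 12 and 395 in normoxia, in the order of the replicate numbers, and 35, 35 and 1001 in hypoxia. In all lists of values that follow, replicates 1, 2 and 3 stand in that order. The 9 luminal markers were all expressed (KRT19 had at least 109113 counts in every library), and their summed level was 14000 to 18100 CPM in normoxia and 10200 to 13500 CPM in hypoxia. The 9 basal or mesenchymal markers summed to 4.16 to 21.2 CPM in normoxia and 16.1 to 31.6 CPM in hypoxia. Immune markers summed to at most 4.23 CPM in any library, endothelial markers to at most 0.514 CPM and the fibroblast list, nearly all of it COL1A1, to at most 99.5 CPM. No marker of these lists was at 0 in all libraries, and the part of these shifts in the results below was not tested. The 7 known hypoxia genes used to check the labels were all higher in hypoxia, among them EGLN3 (log2-fold change 5.51), CA9 (5.29) and NDRG1 (4.37). Their list was made with earlier results of these data known, and 30.4% of all tested genes were higher by the test described below. In bulk RNA, fewer cells of a kind and less RNA per cell cannot be told apart.

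The promoters of the 10 genes were examined for the core of the hypoxia response element, the short motif that HIF-1 binds. RefSeq (GRCh38.p14) gave 13 promoter windows for 9 of the genes, each reaching from 250 bases before a transcription start to 50 bases after it. For PDP1 no window was used. The letters ACGTG, read on either strand, were present in 7 of the 13 windows, compared with 21.4% of all 35116 windows in the table. The letters GCGTG were found in 6 of the 13 and in 36.5% of all windows. Either motif was found in 8 of the 13, and in 48.4% of all windows. Windows of the same gene can overlap, and a CACGTG palindrome counts as an ACGTG match on each strand. The stretches below, 30 bases each, show the ACGTG match nearest to a start in each of the 7 genes that hold one, because it is the shared sequence feature that can be set beside the direction in which each gene moved. They are printed on the strand of the gene with the match in capitals, where CACGT is ACGTG read on the other strand. Coordinates are GRCh37, the build of the count tables, and were found by exact matching.
PDK1, chr2:173420788-173420817, plus strand, ending 1 base before a start: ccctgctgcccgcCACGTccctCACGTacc
PDK2, chr17:48172574-48172603, plus strand: cccgggggaagcCACGTGccggggcggaag
PDK3, chrX:24483329-24483358, plus strand: tcgcgcgccgcgtACGTGcagcaaccgact
PDP2, chr16:66914209-66914238, plus strand: ggcgatctcaggCACGTGactgcctggtcc
PDHB, chr3:58419575-58419604, minus strand: ggcggggcctgctCACGTctgccggcccct
DLAT, chr11:111896084-111896113, plus strand: ccattttacgacaACGTGcggctgtgcggt
PDHX, chr11:34938030-34938059, plus strand: ggaggcaaggccaACGTGgttggaggcggg

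In PDK1 the 2 ACGTG matches lay close together, in front of a start 717 bases downstream of the first counted base of the gene, and the window at that first base held none. The matches of PDK2, DLAT and PDHX likewise belonged to starts 614, 594 and 488 bases downstream of their first counted bases. The other windows of PDK2 and PDHX held no ACGTG. PDK4 and PDHA1 had no ACGTG in their windows, although PDHA1 held 4 GCGTG matches. The motif was thus present in genes that rose in hypoxia (PDK1, PDK3), in genes that fell (PDHB, DLAT, PDHX) and in the 2 genes that passed the test in neither direction (PDK2, PDP2), and absent from PDK4, which rose. A match is a run of letters in a window and does not show binding.

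Gene counts were compared between hypoxia and normoxia with edgeR's quasi-likelihood test, fitted to the 15657 genes that passed a filter on low counts, with Benjamini-Hochberg adjusted p-values. All 10 genes of the group passed the filter. At an adjusted p under 0.05, 4 of the 10 were higher in hypoxia (PDK1, PDK3, PDK4 and PDP1) and 4 were lower (PDHA1, PDHB, DLAT and PDHX). Hypoxia changed much of the transcriptome. Of all tested genes, 59.5% passed the threshold, 30.4% as higher and 29.1% as lower, so that 8 of 10 is to be read against a high background. The CPM values of the 2 conditions did not overlap for any of the 10 genes, which was also true of 67.3% of all tested genes. By role, the calls fell as follows. Of the kinases, 3 of 4 rose and none fell. The 4 structural genes all fell. Of the phosphatases, PDP1 rose and PDP2 did not pass the test. With the replicate number as a block, PDK2 and PDP2 passed as lower, giving 4 higher and 6 lower, while 71.8% of all tested genes passed in either direction. Replicate 3 of both conditions, the libraries that stood apart, was also left out. Over all genes this raised the calls from 4765 to 5751 higher and from 4551 to 5506 lower. All 8 calls of the group were kept without these libraries. The log2-fold changes were then 2.31 for PDK1, 0.69 for PDK3, 0.98 for PDK4, 1.01 for PDP1, -0.73 for PDHA1, -1.09 for PDHB, -1.31 for DLAT and -0.66 for PDHX, with -0.22 for PDK2 and -0.12 for PDP2.

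**Figure D1:**
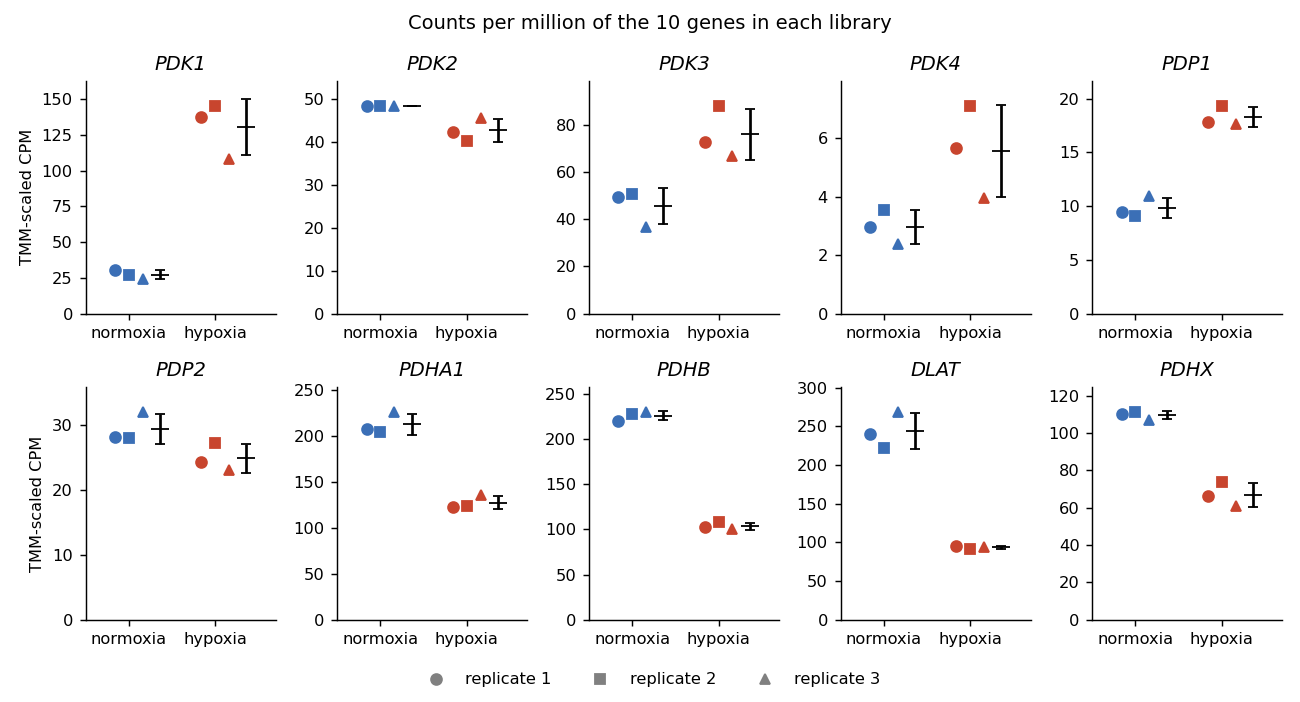
TMM-scaled CPM (vertical axes, each starting at 0) of the 10 genes in 3 normoxia libraries (blue) and 3 hypoxia libraries (red). Symbols mark the replicate number and the black bars the mean ± SD. PDK1 lies between 24.4 and 30.4 CPM in normoxia and between 108.4 and 145.2 CPM in hypoxia, whereas the 4 structural genes are lower in every hypoxia library.

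PDK1 (chromosome 2, 173420101 to 173490351), the kinase most closely tied to HIF-1, showed the largest change of the group. Its level was 30.4, 27.0 and 24.4 CPM in normoxia replicates 1, 2 and 3 and 137.7, 145.2 and 108.4 CPM in hypoxia replicates 1, 2 and 3. Every hypoxia library was thus more than 3 times above every normoxia library, and replicate 3 was the lowest of its condition both times. The mean rose from 27.2 ± 2.99 to 130.4 ± 19.5 CPM (SD, n = 3), a 4.78-fold increase. The log2-fold change was 2.26 (standard error 0.14, 95% interval 1.94 to 2.57, edgeR adjusted p = 3.94e-05). In the 3 same-numbered pairs of libraries the log2 CPM ratio was 2.18, 2.43 and 2.15. Ranked by length-corrected level among all tested genes, PDK1 moved from percentile 42.9 to percentile 79.9.

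PDK3, a kinase with a narrow tissue range that is known to be inducible by HIF-1, also rose. PDK3 (chromosome X, 24483344 to 24568583) had 49.4, 50.7 and 36.9 CPM in normoxia and 72.7, 87.9 and 66.9 CPM in hypoxia. The groups did not overlap, and replicate 3 was again the lowest library of each condition. PDK3 increased 1.66-fold (log2-fold change 0.73, standard error 0.15, edgeR adjusted p = 0.00397). This change was smaller than that of PDK1, and the 95% intervals of the log2-fold changes, 0.39 to 1.08 for PDK3 and 1.94 to 2.57 for PDK1, were far apart.

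PDK4, the kinase known to be induced by fasting, fatty acids and glucocorticoids, was the least abundant gene of the group. PDK4 (chromosome 7, 95212809 to 95225925) had 117, 132 and 74 counts in normoxia and 229, 260 and 363 counts in hypoxia. Scaled for depth, these were 2.96, 3.55 and 2.39 CPM against 5.66, 7.11 and 3.97 CPM. The lowest hypoxia library (replicate 3) and the highest normoxia library (replicate 2) were separated by less than the spread within hypoxia. PDK4 rose 1.86-fold, which is 0.90 on the log2 scale (standard error 0.25, 95% interval 0.31 to 1.48, edgeR adjusted p = 0.0162). The call rested on few libraries. It was lost without hypoxia replicate 2 (log2-fold change 0.69, edgeR adjusted p = 0.0616), without replicate 1 of both conditions (0.89, edgeR adjusted p = 0.114) and without replicate 2 of both conditions (0.83, edgeR adjusted p = 0.0566).

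PDK2 is the kinase found in most tissues, and it was the one kinase that did not rise. PDK2 (chromosome 17, 48172101 to 48188733) was at 48.4 CPM in each of the normoxia libraries and at 42.4, 40.2 and 45.6 CPM in hypoxia. All hypoxia libraries were below all normoxia libraries, and hypoxia replicate 3 came closest to them. The log2-fold change was -0.18 (standard error 0.079, 95% interval -0.36 to 0.00), which did not pass the threshold (edgeR adjusted p = 0.0832). With the replicate block the estimate was again -0.18 and passed (standard error 0.063, edgeR adjusted p = 0.0307). It also passed without hypoxia replicate 3 (-0.23, edgeR adjusted p = 0.0279) and without replicate 3 of both conditions (-0.22, edgeR adjusted p = 0.0106). With upper-quartile scaling, which moved the median over all genes from 0.028 to 0.185 on the log2 scale, the PDK2 estimate was -0.022 (edgeR adjusted p = 0.814). Scaling shifts all genes by nearly the same amount, so the PDK2 value relative to that median could hardly differ. It was -0.21 with either scaling, which is no separate evidence of a fall. The counted exons of PDK2 share 61 bases with SAMD14 on the opposite strand, a gene with 4 to 174 counts per library.

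**Figure D2:**
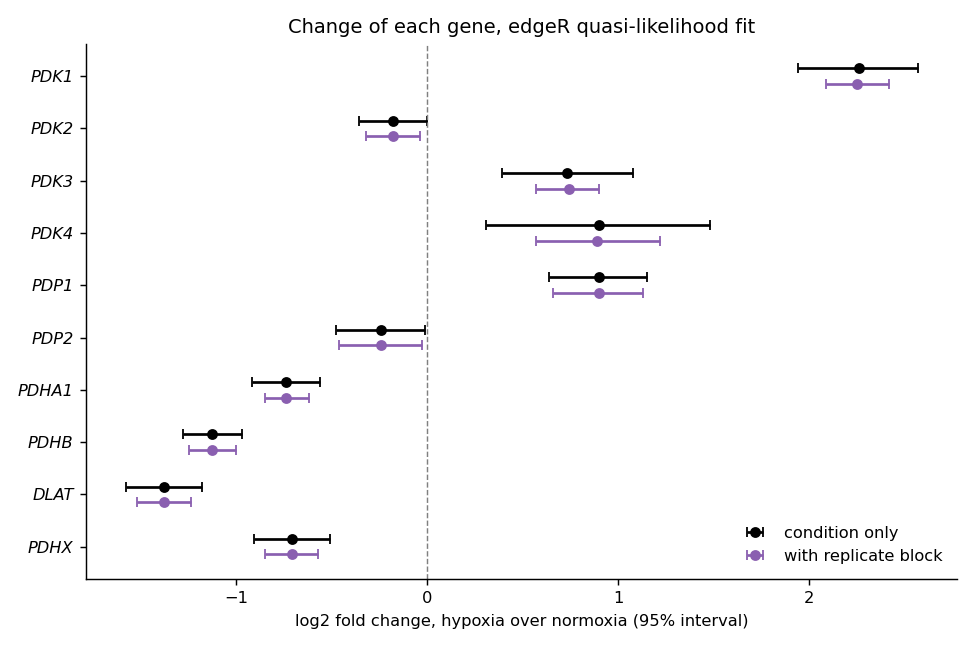
Log2-fold change of each gene (hypoxia over normoxia, horizontal axis) with its 95% interval derived from edgeR's quasi-likelihood test, with condition only (black) and with the replicate number as a block (purple). The intervals of PDK1, PDK3, PDK4 and PDP1 lie above 0 and those of PDHA1, PDHB, DLAT and PDHX lie below 0 in both fits. PDK2 and PDP2 lie closest to 0. The PDP2 interval is below 0 in both fits (-0.48 to -0.01, and -0.46 to -0.03 with the block). That of PDK2 is -0.36 to 0.00, and -0.32 to -0.04 with the block.

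Because the kinases moved by different amounts, their shares of the summed kinase transcripts were compared within each library. Levels were divided by the length of the counted exons and scaled to a fixed total per library (TPM). PDK1 made up 21.7, 19.5 and 19.1% of the kinase TPM in normoxia and 54.7, 54.9 and 48.7% in hypoxia. PDK2 made up 59.4, 60.1 and 65.1% in normoxia and 28.9, 26.1 and 35.2% in hypoxia. Per length, PDK2 was therefore the leading kinase transcript in every normoxia library and PDK1 in every hypoxia library. By counts not divided by length, PDK1 also led in every hypoxia library, but in normoxia PDK3 was ahead of PDK2 in replicate 1 (1949 against 1910 counts) and replicate 2 (1888 against 1800). The mean share of PDK1 grew by 32.7 percentage points, and that of PDK2 dropped by 31.5 percentage points. The shares of PDK3 (12.8 to 16.3% in normoxia, 12.8 to 14.7% in hypoxia) and of PDK4 (2.95 to 4.04% and 2.81 to 4.23%) overlapped between conditions, with differences of -1.28 and 0.0847 percentage points. For PDK1 and PDK2 the exact permutation test gave a two-sided p of 0.1, the smallest that 3 libraries against 3 allow. Adjusted over the 10 ratios compared, this was 0.125, so none of these ratios can pass 0.05 by this test. The shares depend on the lengths of the counted exons, which range from 3392 bases for PDK2 to 13136 for PDK3. Without division by length, the differences for PDK1, PDK2 and PDK3 were 29.18, -22.14 and -6.83 percentage points. The overlap of the PDK3 shares also depends on length, since by counts its share was lower in every hypoxia library than in every normoxia library.

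**Figure D3:**
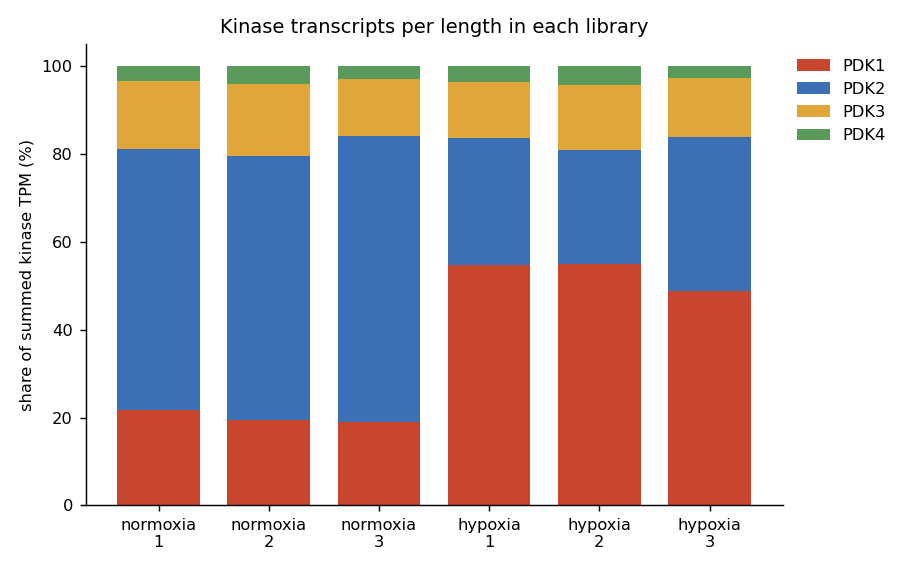
Share of each kinase in the summed kinase TPM (vertical axis, percent) in each of the 6 libraries (bars). PDK2 takes 59.4 to 65.1% in normoxia and PDK1 takes 48.7 to 54.9% in hypoxia, while the shares of PDK3 and PDK4 overlap between conditions.

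The phosphatases, which oppose the kinases, moved apart. PDP1 (chromosome 8, 94929083 to 94938296), the calcium-stimulated phosphatase, had 9.48, 9.08 and 10.9 CPM in normoxia and 17.9, 19.3 and 17.7 CPM in hypoxia. The groups were well separated, with little spread in either. PDP1 rose 1.86-fold (log2-fold change 0.90, standard error 0.11, edgeR adjusted p = 4.37e-04). PDP2, which does not respond to calcium and is known for its response to insulin, was slightly lower in hypoxia. PDP2 (chromosome 16, 66914264 to 66925002) had 28.22, 28 and 32.05 CPM in normoxia and 24.3, 27.4 and 23.1 CPM in hypoxia. The libraries numbered 2 were nearly level in the 2 conditions. The log2-fold change of PDP2 was -0.24 (standard error 0.10, 95% interval -0.48 to -0.01, edgeR adjusted p = 0.0719), which passed with the replicate block (edgeR adjusted p = 0.042). With upper-quartile scaling it was -0.081 (edgeR adjusted p = 0.517). Relative to the median of all genes it was -0.27 with either scaling, a value that could again hardly differ. Per length, the ratio of PDP1 to PDP2 was 0.556, 0.538 and 0.565 in normoxia and 1.22, 1.17 and 1.27 in hypoxia. PDP2 was thus ahead of PDP1 per length in every normoxia library and behind it in every hypoxia library, a 2.2-fold change of the ratio (exact permutation p = 0.1, adjusted 0.125). The crossing depends on the exon lengths (4452 bases for PDP1 and 7378 for PDP2), since by counts PDP2 stayed ahead in hypoxia, with 984, 1001 and 2107 counts against 723, 707 and 1615 for PDP1.

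The subunits of the E1 enzyme both fell. PDHA1 (chromosome X, 19362011 to 19379826) carries the serines that the kinases phosphorylate. Its level was 208.3, 204.3 and 226.4 CPM in normoxia and 123.2, 124.2 and 135.7 CPM in hypoxia. Replicate 3 was the highest library of each condition, and the groups were far apart. PDHA1 was 1.67-fold lower (log2-fold change -0.74, standard error 0.078, edgeR adjusted p = 2.29e-04), and the log2 CPM ratios of the 3 same-numbered pairs were -0.758, -0.718 and -0.739. Its germline-restricted relative PDHA2 did not pass the filter. PDHB (chromosome 3, 58413357 to 58419579), the beta subunit, had 220.5, 227.3 and 229.8 CPM in normoxia and 102.2, 107.7 and 100.5 CPM in hypoxia. PDHB was 2.18-fold lower, or -1.13 as a log2-fold change (standard error 0.069, edgeR adjusted p = 3.99e-05). The 95% intervals of the 2 subunits, -0.92 to -0.56 for PDHA1 and -1.28 to -0.97 for PDHB, did not overlap. The ratio of PDHA1 to PDHB per length went from 0.434, 0.413 and 0.452 in normoxia to 0.553, 0.529 and 0.619 in hypoxia (exact permutation p = 0.1, adjusted 0.125).

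DLAT (chromosome 11, 111895538 to 111935002), the acetyltransferase that forms the core, showed the largest decrease of the group. It had 240.7, 222.7 and 268.5 CPM in normoxia and 95.01, 91.36 and 94.49 CPM in hypoxia. The hypoxia libraries lay within a few CPM of each other, whereas the normoxia libraries were more spread. DLAT fell from 244 ± 23.1 to 93.6 ± 1.98 CPM (SD, n = 3) and was 2.61-fold lower (log2-fold change -1.38, standard error 0.087, edgeR adjusted p = 4.03e-05). PDHX (chromosome 11, 34937677 to 35017675), the E3-binding protein that sits in the same core, had 110.2, 111.2 and 107.0 CPM in normoxia and 66.4, 73.6 and 60.8 CPM in hypoxia. It was 1.64-fold lower (log2-fold change -0.71, standard error 0.088, edgeR adjusted p = 4.25e-04). The ratio of DLAT to PDHX per length was 1.5, 1.38 and 1.73 in normoxia and 0.983, 0.853 and 1.07 in hypoxia, so DLAT was per length the more abundant transcript of this pair in all normoxia libraries but in only 1 of the hypoxia libraries (exact permutation p = 0.1, adjusted 0.125). By counts, DLAT was ahead of PDHX in all 6 libraries.

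The strand setting of the counting is not given in the sources used here, and 3 of the structural genes share exon bases with a gene on the opposite strand. PDHA1 shares 954 bases with MAP3K15, which had only 5 to 15 counts in any library. DLAT shares 212 bases with PIH1D2 (220 to 747 counts). PDHX shares 184 bases with APIP, which had 1083 to 2811 counts per library. How many reads fell in the shared bases cannot be read from gene counts.

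Per length, the structural genes stood above the regulators in normoxia. In TPM, the normoxia order was PDHB (343 on average), PDHA1 (148), DLAT (137), PDHX (89.5), PDK2 (34.9), PDK1 (11.4), PDP2 (9.72), PDK3 (8.52), PDP1 (5.38) and PDK4 (1.97). Neighbours in this order did not overlap, except PDK1 with PDP2 and PDP2 with PDK3. In hypoxia PDK1 (59.7 TPM) had moved level with PDHX (59.6) and DLAT (57.2), and these 3 neighbours overlapped in their TPM. They stood below PDHB (171) and PDHA1 (96.5) and above PDK2 (33.4), PDK3 (15.4), PDP1 (10.9), PDP2 (8.98) and PDK4 (4.03). TPM shares a fixed total within a library, and on this scale PDK2 (33.5 to 35.8 in normoxia and 32.1 to 34.3 in hypoxia) and PDP2 (9.46 to 10.2 and 7.97 to 10.1) overlapped between conditions.

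**Figure D4:**
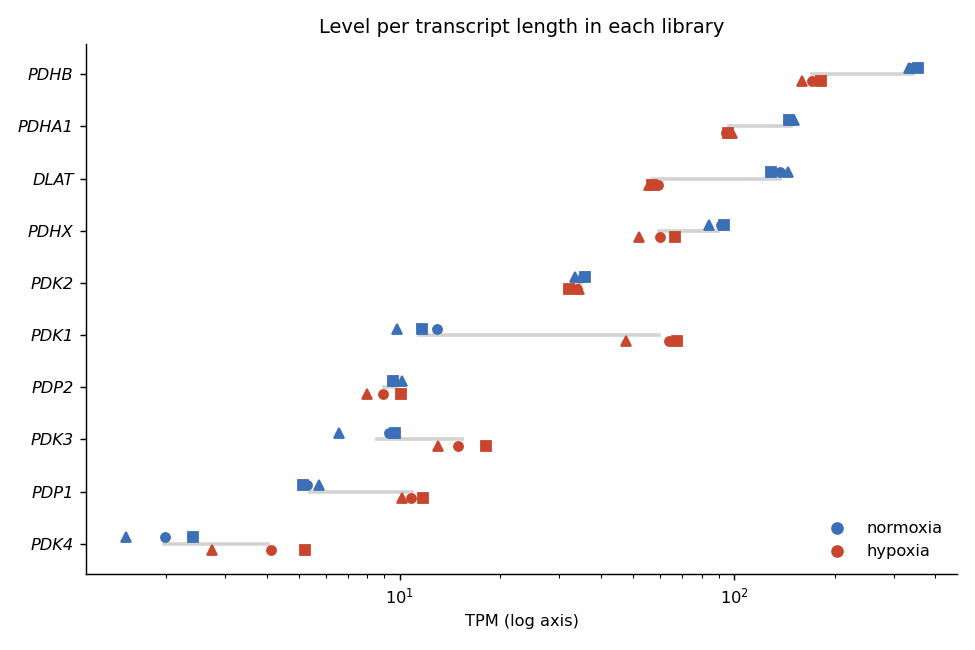
Length-corrected level of each gene (TPM, log axis) in the normoxia (blue) and hypoxia (red) libraries, with genes ordered by their normoxia mean. Symbols mark replicate 1 (circle), 2 (square) and 3 (triangle), and grey lines join the means. PDK1 moves from 11.4 to 59.7 TPM on average, level with PDHX and DLAT in hypoxia.

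The balance of kinases against their substrate and against the phosphatases followed from these levels. The summed kinase TPM was 0.405, 0.407 and 0.34 times the PDHA1 TPM in normoxia and 1.23, 1.28 and 0.988 times in hypoxia. Kinase transcripts were fewer than PDHA1 transcripts in all normoxia libraries and about equal or more in all hypoxia libraries, a 3.03-fold change of the ratio (log2 difference 1.60). The log2 differences within same-numbered pairs lay between 1.54 and 1.65. Against the summed phosphatases, the kinases stood at 4.04, 4.06 and 3.22 in normoxia and 5.92, 5.64 and 5.39 in hypoxia, a 1.5-fold change (log2 difference 0.59, and 0.89 without division by length). Neither ratio overlapped between conditions, and each had an exact permutation p of 0.1, adjusted 0.125. These are transcript ratios, and no protein or phosphorylation was measured in these libraries.

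Genes that work next to the complex were taken from lists, and each count below can be read against the same background of called genes. Of 9 tested genes for the remaining parts of the complex and its cofactors, 3 rose, 4 fell and 2 passed in neither direction. DLD, the E3 enzyme shared with the sister complexes, had 125.3, 128 and 145.3 CPM in normoxia and 63.4, 63.8 and 68.9 CPM in hypoxia. The groups were far apart, and the log2-fold change of DLD was -1.02 (standard error 0.086, edgeR adjusted p = 9.78e-05). PDPR, the regulatory subunit of the phosphatase, also fell, with a difference of -0.54 on the log2 scale. Among the genes that rose were LIAS (0.58), which completes lipoate, and LIPT2 (0.39, edgeR adjusted p = 0.0471), which transfers its octanoyl precursor. LIPT2 lost its call in 11 of 15 alternatives. The thiamine transporter SLC19A3 rose (1.69) from only 4, 12 and 10 counts in normoxia to 18, 24 and 109 counts in hypoxia, and lost its call without normoxia replicate 1 (1.27, edgeR adjusted p = 0.0771), without hypoxia replicate 3 (1.15, edgeR adjusted p = 0.0778), and without both libraries of replicate 1 (1.54, edgeR adjusted p = 0.0547) or of replicate 2 (2.03, edgeR adjusted p = 0.0577).

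Of 12 tested genes of pyruvate supply and of its other fates, 6 rose, 3 fell and 3 passed in neither direction. LDHA, which turns pyruvate into lactate, had 783.6, 665.4 and 707.9 CPM in normoxia and 2206, 2238 and 2378 CPM in hypoxia. Its log2-fold change was 1.66 (standard error 0.091, edgeR adjusted p = 3.35e-05). The lactate exporter SLC16A3 rose by 1.75 on the log2 scale and the mitochondrial phosphoenolpyruvate carboxykinase PCK2 by 1.05. Pyruvate carboxylase (PC), which turns pyruvate into oxaloacetate, fell by 0.82, MPC2 by 0.48 and the malic enzyme ME2 by 0.39. MPC1, the partner of MPC2 in the mitochondrial pyruvate carrier, had 27.1, 28.7 and 32.9 CPM in normoxia and 19.9, 24.8 and 25.9 CPM in hypoxia. Its log2-fold change of -0.33 did not pass (edgeR adjusted p = 0.0547) but passed with the replicate block (edgeR adjusted p = 0.0041), and in 6 of 15 alternatives in all. LDHB and ME1 did not pass the filter.

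The sister complexes, which share their design and the DLD subunit with pyruvate dehydrogenase, had more genes lower than higher in hypoxia. Of their 9 tested genes, 1 rose, 6 fell and 2 passed in neither direction. The largest decreases were in DHTKD1 (-1.53 on the log2 scale) and OGDH (-1.02), E1 enzymes of the 2-oxoadipate and 2-oxoglutarate complexes, and in PPM1K (-0.88), the phosphatase of the branched-chain complex. Its E1 alpha subunit BCKDHA rose by 0.35 on the log2 scale, a call that was lost without both libraries of replicate 1 (0.42, edgeR adjusted p = 0.0623) or of replicate 2 (0.36, edgeR adjusted p = 0.0617). Downstream of the complex, 14 of the 15 tested TCA cycle genes fell and none rose. The largest decreases were in CS (-0.94), which takes up acetyl-CoA, FH (-0.93) and SDHB (-0.84). The median log2-fold change was -0.93 for the 4 structural genes of the pyruvate dehydrogenase complex and -0.67 for the TCA cycle genes. It was -0.41 for the 9 genes of the sister complexes and 0.028 for all tested genes.

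Of 13 tested transcription factors and coactivators known to act on kinase genes, 5 rose, 2 fell and 6 passed in neither direction. The nuclear receptor ESRRG rose by 2.33 on the log2 scale, from between 11 and 21 counts in normoxia to between 65 and 160 counts in hypoxia. FOXO1 and FOXO3, known activators of PDK4, rose by 1.68 and 0.93. HIF1A, the oxygen-regulated subunit of HIF-1, whose protein is controlled mainly by degradation, had 137.8, 130.1 and 138.9 CPM in normoxia and 56.7, 58.7 and 42.4 CPM in hypoxia. Its transcript was thus lower in every hypoxia library (log2-fold change -1.37, standard error 0.13, edgeR adjusted p = 1.42e-04). E2F1 fell by 1.53 on the log2 scale. EPAS1, which encodes HIF-2 alpha, had 131.4 to 175.9 CPM in normoxia and 141.5 to 167.3 CPM in hypoxia and did not pass the test (edgeR adjusted p = 0.996). PPARG did not pass the filter.

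**Figure D5:**
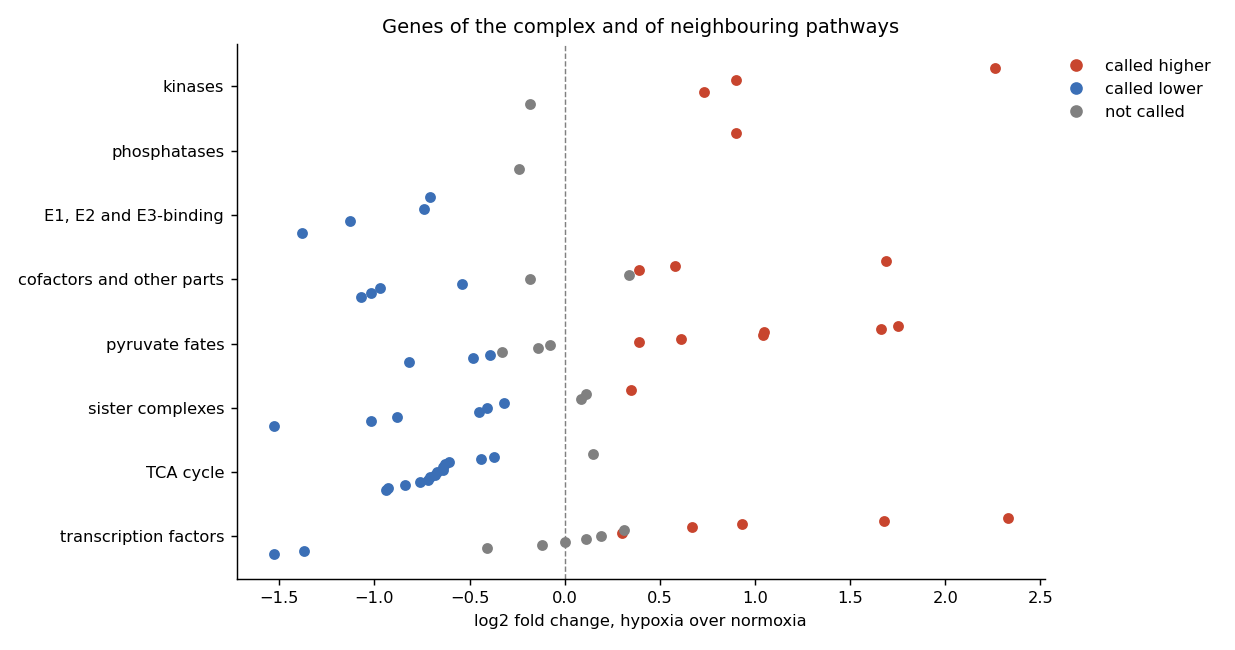
Log2-fold change (hypoxia over normoxia, horizontal axis) of every tested gene of the complex and of the neighbouring lists (rows), with 1 dot per gene, colored by whether it passed an adjusted p under 0.05 in edgeR's quasi-likelihood test as higher (red), lower (blue) or neither (grey). The 4 structural genes and 14 of 15 TCA cycle genes lie to the left, and 3 of 4 kinases to the right.

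Over the 6 libraries, the genes whose log2 CPM followed that of PDK1 most closely were, of the 12664 genes averaging 100 counts or more, SLC2A1 (Pearson's r = 0.9997), ZNF841 (0.9996) and CTSL (0.9989). For DLAT they were MARC1 (0.9997), HCCS (0.9996) and ARFGAP2 (0.9995). The 6 points share 2 conditions, and 1600 genes reached an r of at least 0.95 with PDK1 and 2063 with DLAT, so these values describe the shared step between conditions.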

How the data were processed

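RNA sequencing of 3 normoxia and 3 hypoxia libraries of T47D cells was analysed. The labels describe a stranded mRNA library kit. The authors aligned reads to GRCh37 and deposited raw counts per RefSeq gene for each library, without normalization. The submitters' processing notes name FastQC 0.11.5, STAR 2.5.2a and featureCounts 1.5.1. How strand and multiply mapped reads were handled in the counting is not given in the sources used here. Counts were analysed with R 4.3.3 and edgeR 4.0.16 (TMM scaling, filterByExpr at its minimum count of 10 and total of 15, quasi-likelihood test with condition only, two-sided, Benjamini-Hochberg adjustment at 0.05), and ratios and figures with Python 3.11.15, SciPy 1.17.1 and matplotlib 3.10.9. CPM is TMM-scaled, TPM uses the exon lengths in the files, and ± is the SD of 3 libraries. Alternatives were the exact test of edgeR (the test named by the study), DESeq2 1.42.0, 2 other scalings, no filter, other thresholds, no division by length, and fits without single libraries or replicate numbers. The scripts were tested on simulated counts. Those counts had few changed genes, as many up as down, and no replicate effect. The test therefore does not cover scaling or the block under the broad changes seen here. Total counts set the precision, and floors cover counting error only.

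The labels number replicates 1 to 3 in each condition. Libraries with the same number deviated together from their condition means (correlation across genes of 0.338, 0.422 and 0.575 for numbers 1, 2 and 3). Unlike numbers 1 and 2 also did so (0.277 for normoxia 2 with hypoxia 1, and 0.243 for normoxia 1 with hypoxia 2). Number 3 with 1 or 2 gave -0.466 to -0.376, so these values set number 3 apart more than they separate 1 from 2. The study's methods call the samples paired, so the replicate number was also fitted as a block. The genes and lists were chosen with earlier results of these data known. Outside the 10 genes, each list contributed at most its 3 largest called changes each way. DLD, PDPR, LDHA, MPC1, MPC2, HIF1A and EPAS1 were always named, and genes that failed the filter are named only. Some genes of the cofactor list are counted but not reported here. Genes mentioned as label checks, markers or exon overlaps were added.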

Additional observations from a re-analysis of the deposited data

How the results depend on the processing

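Across 15 alternatives for each of the 10 genes (150 values), 143 kept the direction and the side of the threshold, 3 lost a call (all PDK4), 4 gained one (3 for PDK2, 1 for PDP2) and 0 changed direction. DESeq2 and edgeR's exact test changed no call of the 10 genes. With a further minimum of 1 on the size of the log2-fold change, 1 gene was higher (PDK1) and 2 were lower (PDHB, DLAT). The share of all tested genes that met this minimum was not computed, so these counts cannot be set against a background. With libraries or replicate numbers left out, 3 to 4 of the 10 genes were higher and 4 to 5 lower. Over all genes, these fits called 2648 to 5751 higher and 2191 to 5506 lower. The fewest calls came without replicate 1 of both conditions and the most without replicate 3 of both. In these fits the cofactor list had 0 to 4 genes higher and 2 to 4 lower, with 0 higher without both libraries of replicate 1 or of replicate 2, and 1 higher without normoxia replicate 1 or without hypoxia replicate 3. Without both libraries of replicate 1, the calls of PDPR (-0.48, edgeR adjusted p = 0.0802), LIAS (0.61, 0.0878), MPC2 (-0.47, 0.071) and ME2 (-0.39, 0.0883) were lost, and without both of replicate 2 that of LIAS (0.47, 0.0708). The pyruvate list had 3 to 6 higher and 1 to 4 lower, and the sister complexes 0 to 1 higher and 3 to 6 lower. The lowest counts of genes that fell came without replicate 1 of both conditions. Upper-quartile scaling gave 2 higher and 4 lower in the sister complexes (1 and 6 in the main fit). With this scaling 13 TCA cycle genes were lower (14 in the main fit). The transcription factor list had 7 higher (5 in the main fit) and the cofactor list 4 higher (3 in the main fit). It also raised the share of higher genes among all calls from 51.1% to 64.5%. EPAS1, close to 0 (-0.00079), had the opposite sign with upper-quartile scaling (0.16), with the replicate block (0.0045) and in some fits with libraries left out (range -0.10 to 0.12). Without division by length, the PDK1, PDK2 and PDK3 shares differed by 29.18, -22.14 and -6.83 percentage points and the log2 ratio of kinases to phosphatases by 0.89. With the replicate block, PDK2, PDP2 and MPC1 gained a call, and it changed no other call of a named gene. The causes of these changes were not tested. Precision is limited most for PDK4, at 74 counts in its shallowest library, and by 3 libraries per condition.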
